A study of Mus musculus with 21 samples.

Results

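The sciatic nerves of 60-day-old mice with 3 different alterations of Pmp22 were compared, as 1 set, with those of wild type mice of the same age (postnatal day 60, P60). Of the 21 arrays in the study, 9 enter this comparison: 3 of wild type (WT) and 2 from each mutant. The mutants were homozygous for a null allele of Pmp22 (KO), carried a transgene of Pmp22 (TG), or were Trembler animals (TR), whose own Pmp22 is mutated. The mean of the 3 genotype means minus the WT mean was taken for each probe set, so that every genotype had the same weight. The WT mice were of a mixed background, each array held RNA pooled from 4 to 7 mice, and the copy number of the transgene, the zygosity of the Trembler mutation and the background of the mutants were not stated in the labels used. The other 12 arrays hold the same 4 genotypes at postnatal day 4 (P4), 3 arrays each, and served for the comparison of ages.

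The Pmp22 protein crosses the membrane of compact myelin, the wrapped sheath that Schwann cells lay around large axons. Loss, excess and missense change of this protein all disturb that myelin in mice, and in people the corresponding changes underlie inherited neuropathies. Schwann cells pass from an immature state, through a promyelinating state marked by the POU factor Pou3f1, to a myelinating state driven by Egr2. Building myelin takes a large supply of cholesterol, most of which Schwann cells make themselves under the control of the sterol regulatory factors.

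The values are expression indices, model-based brightness values on a linear scale. Median index per array ran from 177.4 to 209.6, and indices below 54.7, the 20th percentile of all values, were set to that floor before log2 was taken. Changes are therefore log2 differences of floored values. They are understated where arrays lie at the floor, and where every array of one side lies there the change is a bound. Pearson's r between P60 arrays of 1 group, taken over probe sets that do not vary independently, ran from 0.935 to 0.985, and the second KO array stood apart, at 62.7 on the first principal component of the P60 arrays (40.1% of the variance) against -34.0 to 18.5 for the other 8. The P60 arrays were scanned on 5 days, and only the third WT and the first TR array shared a day with the other side of the comparison. Both TG arrays were scanned on a day of their own, so the mean over the 3 genotypes cannot be estimated with scan day as a fixed block. Of the 9 markers of myelinating Schwann cells that were measured, 8 lay above the floor on every P60 array, among them Mbp, Egr2, Sox10 and S100b, and Cnp lay below it on all 9.

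More genes were lower than higher in the mutants as a set. Of 10994 probe sets tested, 858 (7.8%) passed an adjusted p of 0.05 in limma, 228 higher (2.07%) and 630 lower (5.73%), and 2372 (21.6%) had an unadjusted p under 0.05. All 6 mutant arrays lay on 1 side of all 3 WT arrays for 1000 probe sets (9.1%), above them for 357 (3.25%) and below for 643 (5.85%), and 584 of these (5.31% of those tested) were also called, 140 higher (1.27%) and 444 lower (4.04%). The split leaned less to the lower side after quantile scaling, with 337 higher and 528 lower. The count was 553, 538 and 463 without the first, the second and the third WT array, and 1456 without the first KO array. A fixed scan day term was possible for KO and TR only, and the mean of these 2 genotypes then gave 235 calls, 186 higher and 49 lower. Of the 235, 73 were among the 858 with the same sign. Both KO arrays shared their scan day only with the third P4 TG array, so that fit ties KO to WT through P4 arrays. The lean to lower values is not kept in that fit.

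A mean over 3 genotypes can pass because of 1 of them, and so the changes common to all 3 were counted. A probe set was taken as common where it was called in the mean and called with the same sign in KO, in TG and in TR. These 3 comparisons share the same 3 WT arrays, and KO alone gave 1568 calls (14.3%), against 418 in TG (3.8%) and 517 in TR (4.7%). The rises and falls were 333 (3.03%) and 1235 (11.2%) in KO, 156 (1.42%) and 262 (2.38%) in TG, and 181 (1.65%) and 336 (3.06%) in TR. The common set held 113 probe sets (1.03%), of which 26 were higher (0.236%) and 87 lower (0.791%). They stand for 22 named genes that rose and 79 that fell. In the common set the median change was 1.41 in KO, 1.70 in TG and 1.65 in TR for those that rose, and -1.23, -1.31 and -1.35 for those that fell. All 6 mutant arrays lay beyond the 3 WT arrays for 25 of the 26 and 86 of the 87. The values that chose the set also enter this count and the runs without single arrays that follow, so both are descriptions. All 113 stayed called in the mean when any single P60 array was left out. The rule for all 3 genotypes was still met by 59 of the 113 without the second KO array and by 60 without the second TG array. Without the second KO array 70 probe sets met it in all.

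Pmp22 itself was not among them. Its brighter probe set had an index of 7162, 6732 and 6791 in WT, 5679.8 and 4797 in KO, 7388 and 8553 in TG, and 5637 and 5469 in TR. The KO and TR arrays were below all WT arrays and both TG arrays above them, and the mean change was -0.17 ± 0.09 (SE from limma, adjusted p = 0.317), while the 3 mutants differed from one another (F test in limma, adjusted p = 0.0142). A dim second probe set changed by -0.74 ± 0.18 (adjusted p = 0.0149), with -0.94 in KO, -0.15 in TG and -1.13 in TR and with 3 mutant arrays below the floor. The transcript stretch that each probe set covers was not examined, so these values do not check the null allele or the transgene.

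The genes that rose in every genotype included transcription regulators of early Schwann cells. Of 24 measured regulators 7 rose and 0 fell, and 6 of them, Pou3f1, Id2, Sox4, Fos, Sox2 and Id4, rose in each genotype. Over all 7703 genes, with 1 probe set a gene, 1.91% rose in the mean and 0.26% rose in every genotype. The median over the 24 was 0.17, against -0.01 over all genes.

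Pou3f1 (also called Oct6 or SCIP), the POU factor of the promyelinating stage, had an index of 21.8, 129.5 and 37.6 in WT, 1121 and 548 in KO, 1263 and 2153 in TG, and 916 and 1428 in TR. The first and the third WT array were below the floor and every mutant array was far above the highest WT array. The change was 3.97 ± 0.33 (adjusted p = 8.80e-07), with 3.43 in KO, 4.50 in TG and 3.97 in TR. In P4 WT nerve the mean index was 775, within the range of the P60 mutants.

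Id2 encodes a protein that binds and blocks basic helix-loop-helix factors. Its index was 239, 240.1 and 278 in WT, 1140.0 and 1031 in KO, 1749 and 1462 in TG, and 1557 and 1821 in TR. No mutant array came near the WT arrays, the change was 2.51 ± 0.12 (adjusted p = 1.36e-09), and KO rose less (2.11) than TG (2.67) and TR (2.74), a difference among the mutants that passed its test (adjusted p = 0.0424). Id4, a second gene of the family, had 495, 439.9 and 315 in WT, 1413 and 869 in KO, 1191 and 1267 in TG, and 1318 and 1088 in TR. It rose by 1.52 ± 0.27 (adjusted p = 0.00207) with nearly the same size in each mutant, 1.44 in KO, 1.59 in TG and 1.55 in TR. Of the other genes of the family, Id1 had 0.17 (adjusted p = 0.643), and Id3 had -0.72 (adjusted p = 0.0557).

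Sox2 keeps Schwann cells immature. Its index was 785, 777 and 578 in WT, 1681 and 2305 in KO, 1941 and 2155 in TG, and 1887 and 2294 in TR. The mutant arrays were all above the WT arrays. It rose by 1.52 ± 0.21 (adjusted p = 0.000232), again with like sizes, 1.48 in KO, 1.53 in TG and 1.56 in TR. Sox4, another factor of the Sox family, had 281, 404 and 255 in WT, 1364 and 1277 in KO, 962 and 1371 in TG, and 1535 and 1856 in TR on its brighter probe set and rose by 2.16 ± 0.20 (adjusted p = 3.70e-06). The dimmer probe set of Sox4 rose by 1.70 ± 0.21 (adjusted p = 7.83e-05). Sox10, the lineage factor of Schwann cells, had 0.01 (adjusted p = 0.996).

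Fos, an immediate early gene, had 364, 422 and 424 in WT, 1774 and 839 in KO, 1827 and 1596 in TG, and 1809 and 1525 in TR. The second KO array was the lowest mutant and still above all WT arrays. The brighter probe set rose by 1.91 ± 0.21 (adjusted p = 1.48e-05), and the dimmer one, below the floor on all 3 WT arrays, to between 94.8 and 143. Egr1, also an immediate early gene, rose in the mean by 0.85 (adjusted p = 0.00374) but was not called in TG. Egr2, the driver of the myelinating state, had 0.46 (adjusted p = 0.0831), and Jun, which marks injured Schwann cells, -0.03 (adjusted p = 0.946).

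**Figure D1:**
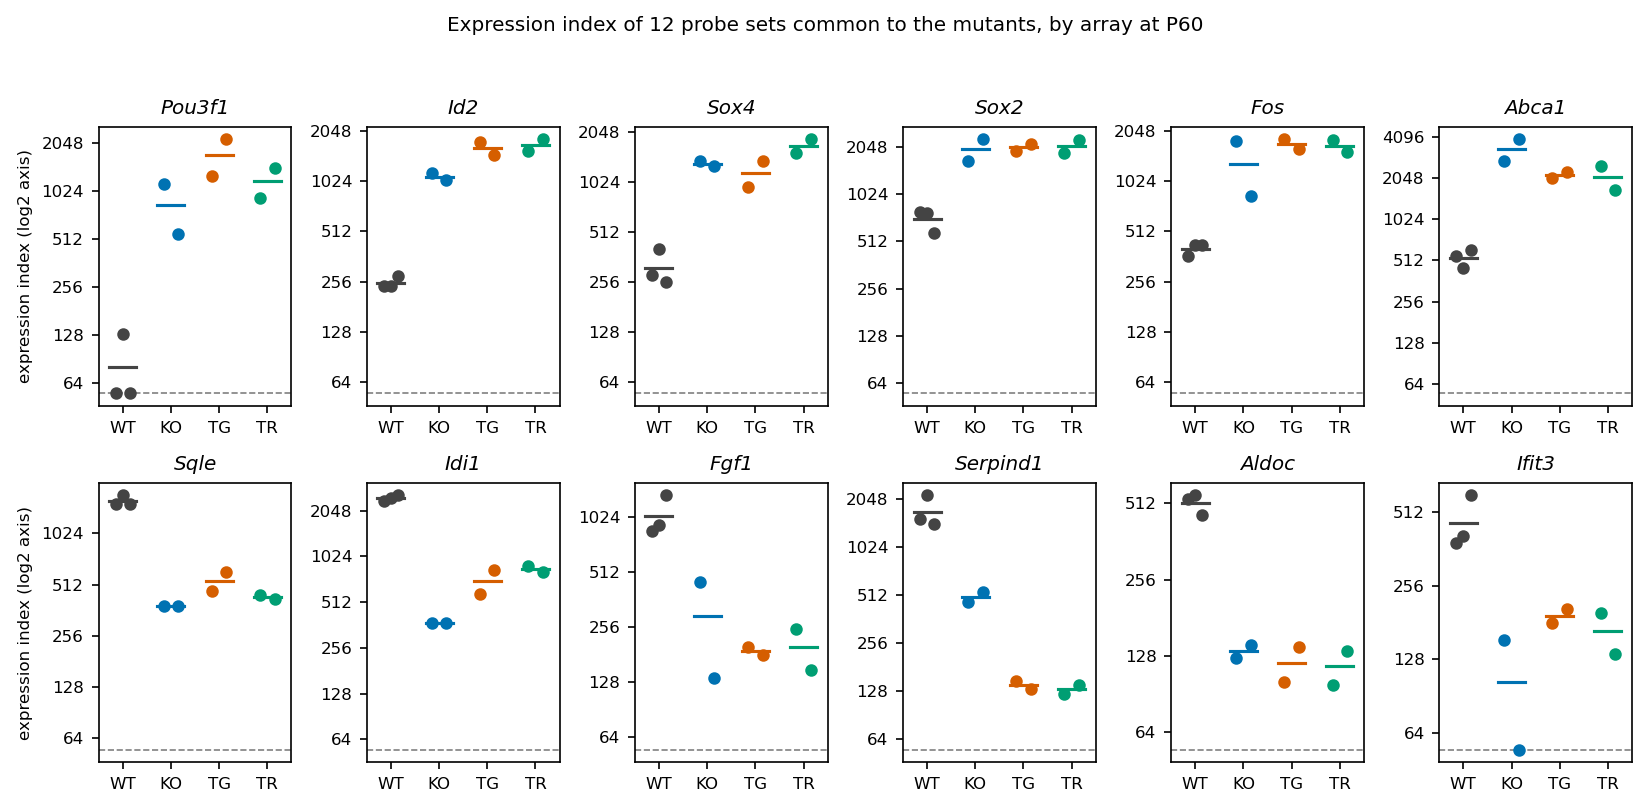
Expression index (log2 axis, values below 54.7 drawn at that floor, dashed line) on each of the 9 P60 arrays for 6 genes that rose (top) and 6 that fell (bottom) in every mutant genotype. Points are arrays (3 WT, 2 each of KO, TG and TR) and bars are arithmetic means of the floored values. In all 12 panels the 6 mutant arrays lie on 1 side of the 3 WT arrays.

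Beside the transcription factors, the largest common rises were in genes of several functions. Abca1, which exports cholesterol from cells, had 549.6, 448 and 615 in WT, 2724 and 3930.1 in KO, 2036 and 2275 in TG, and 2509.6 and 1672 in TR, and rose by 2.19 ± 0.23 (adjusted p = 1.03e-05). The groups did not overlap. A second probe set of Abca1 had 0.25 (adjusted p = 0.325), with 0 in KO, 0.56 in TG and 0.20 in TR. Tyrp1, a melanosome protein, was below the floor on all 3 WT arrays and had 311 and 99.6 in KO, 765 and 774 in TG, and 803 and 337 in TR. Its change was at least 2.92 (adjusted p = 1.66e-05), and it differed among the mutants (adjusted p = 0.0153), with at least 1.69 in KO and at least 3.81 in TG. A second probe set of Tyrp1 rose by 0.69 (adjusted p = 0.0092).

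Tnfrsf21 (death receptor 6) rose by 1.93 ± 0.26 (adjusted p = 0.000183), from 125, 140.2 and 126 in WT to between 343 and 655 in the mutants. Rit2, a small GTPase best known from neurons, rose by 2.23 ± 0.30 (adjusted p = 0.000156), but a second probe set of Rit2 had -0.19 (adjusted p = 0.255), so the 2 probe sets disagree. Phldb2, a membrane-bound adaptor of the cell cortex, rose by 1.85 ± 0.22 (adjusted p = 3.70e-05), with 1.45 in KO, 1.89 in TG and 2.20 in TR. Csrp2, a LIM domain protein chosen here after its values were seen, rose by 2.62 ± 0.26 and is the 1 common rise in which the arrays overlapped, because the second KO array (356) lay below the third WT array (384).

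Cholesterol synthesis was, of the 25 gene lists examined, the one with the largest share of members that fell. Of 18 measured genes of the pathway 12 fell and 0 rose in the mean, and 8 fell in every genotype: Sc5d, Idi1, Cyp51, Sqle, Hsd17b7, Fdft1, Mvd and Msmo1. Over all genes 6.1% fell in the mean and 0.883% in every genotype. The median change over the 18 was -1.24, with -1.38 in KO, -0.86 in TG and -1.14 in TR, against -0.01 over all genes. In single genotypes 14 of the 18 fell in KO, 8 in TG and 11 in TR, and 0 rose in any of them. Of all 7703 genes, 928 fell in KO, 196 in TG and 248 in TR. Of the 6 members that were not called in the mean, 5 had values below 0 and Ggps1, which makes a branch product, had 0.34 (adjusted p = 0.25).

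Genes of this pathway share control by the sterol regulatory factors, which act with the factor NF-Y, a protein that binds the CCAAT box. The stretches just before the transcription start are shown for the 3 common members with the largest smallest change that have an entry in RefSeq's promoter table, and for Hmgcs1, the 1 measured member with a match to the sterol motif. Each is the 150 bases before the start, 5′ to 3′ on the gene's strand, in GRCm38.p6, with CCAAT boxes (on either strand, so ATTGG as well) and sterol motifs in capitals.
Sc5d, chr9:42264301-42264450, minus strand: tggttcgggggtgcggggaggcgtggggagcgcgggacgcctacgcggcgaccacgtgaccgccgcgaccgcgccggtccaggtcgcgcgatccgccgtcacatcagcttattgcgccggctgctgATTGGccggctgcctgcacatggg
Hsd17b7, chr1:169969206-169969355, minus strand: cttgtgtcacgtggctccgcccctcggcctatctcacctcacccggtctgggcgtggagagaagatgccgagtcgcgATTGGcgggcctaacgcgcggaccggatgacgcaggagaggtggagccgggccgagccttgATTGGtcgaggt
Idi1, chr13:8885456-8885605, plus strand: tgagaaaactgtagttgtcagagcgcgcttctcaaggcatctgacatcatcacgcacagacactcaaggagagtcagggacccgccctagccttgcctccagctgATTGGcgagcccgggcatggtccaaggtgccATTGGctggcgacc
Hmgcs1, chr13:119690201-119690350, plus strand: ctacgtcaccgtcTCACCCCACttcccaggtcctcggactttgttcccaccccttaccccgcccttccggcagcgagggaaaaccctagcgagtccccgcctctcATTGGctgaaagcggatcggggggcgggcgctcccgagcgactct
In the table, 15 of the 18 measured members had a promoter sequence of 300 bases, 250 before and 50 after the start. The box CCAAT, searched on both strands, was present in all 15, among them all 6 matched common members and the uncalled Lbr, Ggps1, Mvk and Dhcr7, against 41.1% of 27025 genes. The sterol motif TCACNCCAC, searched on both strands, was present in Hmgcs1 only (1 of 15), against 1.44% of all genes. The 2 motifs overlapped in 2 of all 32851 promoters. A match is a description of these letters and not a site.

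The first steps of the pathway build isoprenoid units. Hmgcs1, which makes HMG-CoA, changed in the mean by -1.65 ± 0.22 (adjusted p = 0.000156), with -1.97 in KO, -0.65 in TG and -2.33 in TR, and was not called in TG. Idi1, the isomerase whose promoter is shown above, had 2382, 2459.9 and 2574 in WT, 375 and 372 in KO, 582 and 833 in TG, and 887 and 802 in TR. Both KO arrays were lowest, no mutant array came near the WT arrays, and the change was -2.03 ± 0.15 (adjusted p = 3.66e-07), with a difference among the mutants (adjusted p = 0.00742). Mvd, which makes isopentenyl diphosphate, changed by -1.17 ± 0.18 (adjusted p = 0.000579). The 2 probe sets of Mvk, mevalonate kinase, differed, with -0.29 (adjusted p = 0.374) on the brighter one and -1.79 on a dimmer one, which was called in every genotype with 4 mutant arrays at the floor. Fdps, which makes farnesyl diphosphate, had 1964, 2352 and 1284 in WT, 226 and 28.3 in KO, 556 and 612 in TG, and 334 and 162 in TR and changed by -2.87 ± 0.43 (adjusted p = 0.000414). TG was again the least changed, at -1.63 (adjusted p = 0.119), and the second KO array was the lowest.

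The following steps close the sterol ring. Fdft1, squalene synthase, changed by -1.37 ± 0.19 (adjusted p = 0.000233) with nearly equal sizes, -1.32 in KO, -1.43 in TG and -1.35 in TR. Sqle, squalene epoxidase, had 1534, 1714 and 1530.0 in WT, 385 and 385 in KO, 468 and 606 in TG, and 447 and 421 in TR. The groups were far apart, and the change was -1.83 ± 0.17 (adjusted p = 2.48e-06). Lss, lanosterol synthase, changed in the mean by -0.72 ± 0.17 (adjusted p = 0.0134).

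The last steps trim the ring. Cyp51, lanosterol demethylase, had 1222, 1160.2 and 886 in WT, 219 and 276 in KO, 284 and 512 in TG, and 382 and 195 in TR and changed by -1.87 ± 0.25 (adjusted p = 0.000127). Msmo1, which oxidises the methyl groups, changed by -1.14 ± 0.16 (adjusted p = 0.000212), and Nsdhl, which removes them, by -1.31 ± 0.22 (adjusted p = 0.0013), with -2.14 in KO and -0.66 in TG. Hsd17b7 had 226, 278 and 131 in WT, 50.1 and 58.3 in KO, 33.5 and 75.6 in TG, and 46.8 and 40.6 in TR. Of its 6 mutant arrays 4 lay below the floor, so its change of -1.79 ± 0.32 (adjusted p = 0.00212) is understated. Sc5d, sterol C5 desaturase, had 544, 519 and 463 in WT, 93.9 and 63.2 in KO, 138 and 80.5 in TG, and 64.0 and 52.5 in TR. It changed by -2.69 ± 0.25 (adjusted p = 2.92e-06), the steepest fall among the 8 common members, and its second probe set by -2.59. Members named here beyond Sc5d, Hsd17b7, Fdps, Sqle, Idi1 and Cyp51 were taken as the rest of the list and not by size. The number of members that fell in the mean was 11 to 13 under the alternative runs counted for this list. The number common to all 3 genotypes was 5 to 8, with 5 without the first TG array. The list was not counted for KO and TR with scan day as a fixed block.

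**Figure D2:**
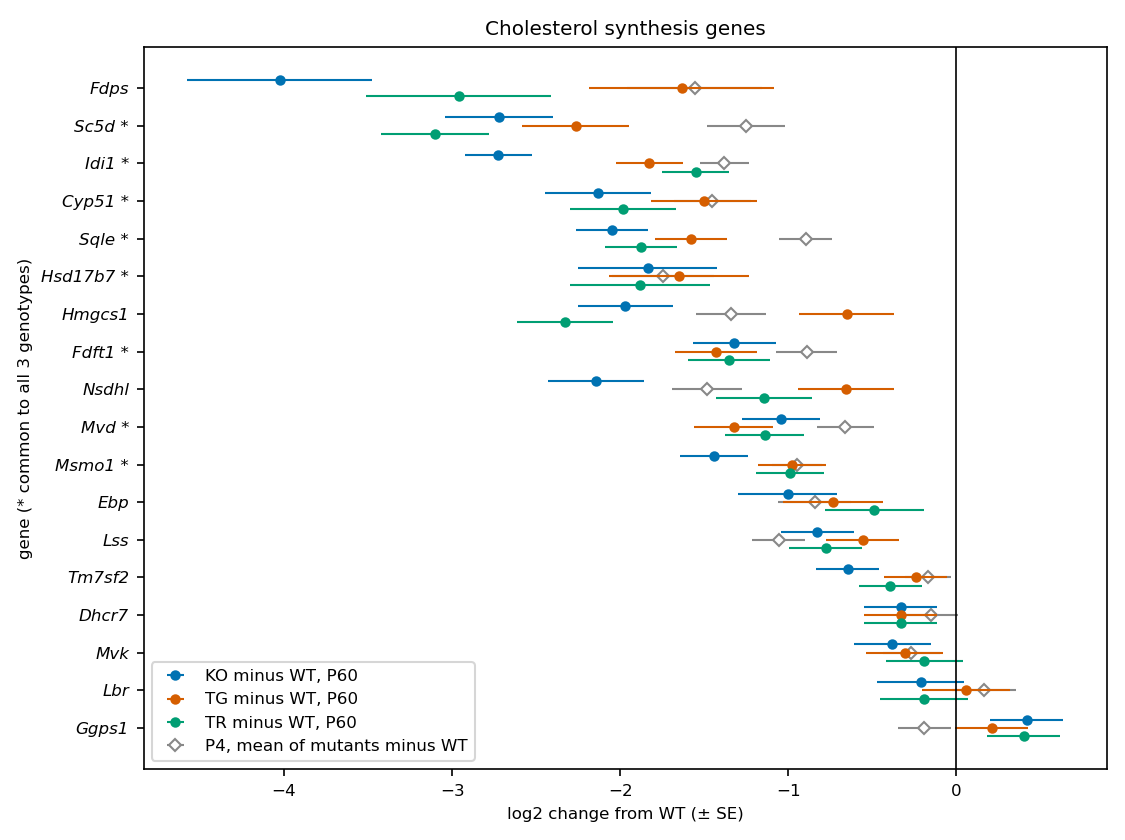
Log2 change from WT (± SE from limma) of the 18 measured cholesterol synthesis genes in KO, TG and TR at P60 (filled) and in the mean of the mutants at P4 (open). Asterisks mark the 8 genes called lower in every genotype. Sc5d, Idi1, Cyp51, Sqle and Hsd17b7 fell in each genotype, and Ggps1 and Lbr lie near 0.

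Fewer genes of fatty acid and membrane lipid synthesis were called. Over all genes 6.1% fell and 1.91% rose in the mean, which applies to each list of this paragraph. Of 19 measured, 3 fell and 1 rose, and Fads1 and Elovl6 fell in every genotype, and 6 fell without the first KO array. Fads1, which desaturates long fatty acids, had 2304, 2129.5 and 2302 in WT, 850.4 and 439.8 in KO, 685 and 1104 in TG, and 656 and 387 in TR and changed by -1.80 ± 0.21 (adjusted p = 3.51e-05). Elovl6, which lengthens saturated ones, changed by -1.28 ± 0.15 (adjusted p = 4.90e-05), with all 6 mutant arrays between 745 and 1377 against 2044 to 2729.7 in WT, and a second probe set by -1.38. Sptlc2, a subunit of the first enzyme of sphingolipid synthesis, changed in the mean by -0.74 ± 0.16 (adjusted p = 0.00761). Among 12 genes of sterol uptake, efflux and control, Abca1 rose, and Npc2 (-0.90), Lrp1 (-0.62) and Nr1h3 fell in the mean. Of 8 myelin protein genes, Mbp (-0.43 ± 0.10, adjusted p = 0.0125) and Mal (-0.76 ± 0.21, adjusted p = 0.0307) fell in the mean, 0 were common, and both differed among the mutants, with -0.09 for Mbp and 0.01 for Mal in TG. The second probe set of Mbp had 0.28 (adjusted p = 0.262), and without the first WT array neither fall was called.

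Other large common falls were in genes of growth control, metabolism and secretion. Fgf1, a fibroblast growth factor that is abundant in myelinated nerve, had 858, 925 and 1345 in WT, 450.0 and 136 in KO, 198 and 180.1 in TG, and 251 and 149.6 in TR. The first KO array was the highest mutant and still below every WT array, and the change was -2.29 ± 0.32 (adjusted p = 0.000233), with -2.05 in KO, -2.43 in TG and -2.40 in TR. Igf2, an insulin-like growth factor, changed by -1.38 ± 0.22 (adjusted p = 0.000877), although its WT arrays themselves spread from 969.8 to 2598. Aldoc, the aldolase of neural tissue, had 533, 549 and 458 in WT, 126 and 141 in KO, 101 and 139 in TG, and 98.5 and 134 in TR and changed by -2.07 ± 0.20 (adjusted p = 4.81e-06). Its 3 genotypes were close, -1.94 in KO, -2.11 in TG and -2.15 in TR.

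Fez1, a kinesin adaptor, changed by -2.08 ± 0.23 (adjusted p = 1.48e-05), and a second probe set by -0.98. Matn4, a matrix protein, changed by -1.90 ± 0.31 (adjusted p = 0.000892), from 265 to 379 in WT to between 67.5 and 134 in the mutants. A probe set of the histone gene H3c14, which can take signal from other histone genes, had 1882, 1927 and 1909 in WT, 773 and 609 in KO, 761 and 688 in TG, and 639.5 and 767 in TR. The groups were far apart, and the change was -1.44 ± 0.21 (adjusted p = 0.000385), with -1.47 in KO, -1.40 in TG and -1.44 in TR. Cma2, a chymase gene whose probe set can pick up related proteases, changed by -2.27 ± 0.32 (adjusted p = 0.000305).

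For a few common genes all 6 mutant arrays lay at the floor, and their falls are bounds. Pygm, muscle glycogen phosphorylase, fell by at least 1.41 on the log2 scale, Osbpl9, an oxysterol-binding protein, by at least 0.92, and Rspo1, a secreted Wnt agonist, by at least 0.79. Tspan8, a tetraspanin, fell by at least 0.83 and Scg5, a secretory granule chaperone, by at least 0.76. In WT these 5 probe sets were themselves dim, between 81.9 and 188. Pygm, Rspo1, Tspan8 and Scg5 also had a P4 change of 0.0. A probe set at the floor on all other arrays passes the filter only through WT at P60, which fixes its direction. Its floored arrays show no spread, so such falls are descriptions. A second probe set of Osbpl9 had -0.02 (adjusted p = 0.993).

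**Figure D3:**
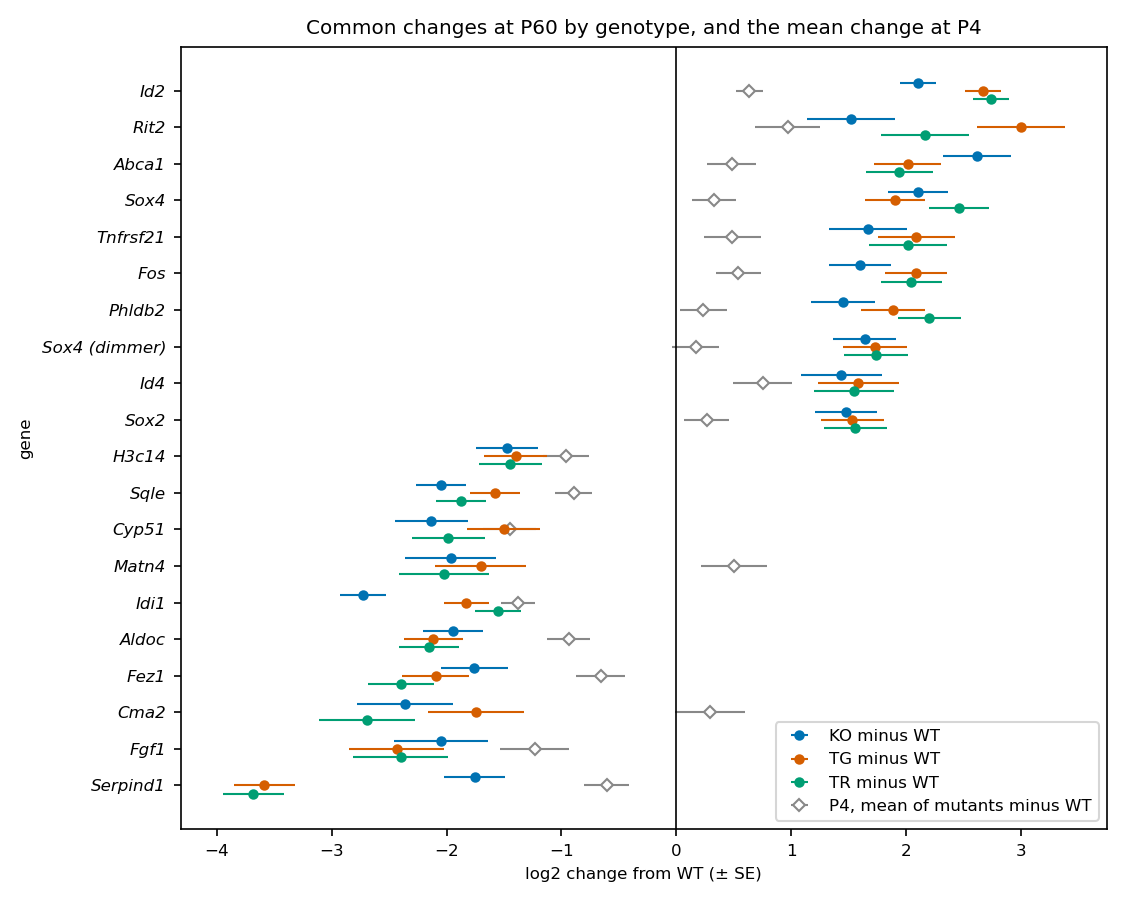
Log2 change from WT (± SE from limma) in KO, TG and TR at P60 (filled) for the 10 rises and 10 falls common to all genotypes that rank highest by their smallest change, and the mean change of the mutants at P4 (open). The 3 genotypes lie close together for Sox2 (1.48 to 1.56) and H3c14 (-1.47 to -1.40) and apart for Serpind1 (-1.76 in KO, -3.68 in TR).

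A common direction did not mean a common size. The F test among the 3 mutant means called 993 of the 10994 probe sets (9.03%), and 17 of the 113 common ones. No WT mean enters this test, although the WT arrays enter limma's estimate of the spread. It gave 250 calls without the second KO array, 1753 without the first, and 645 and 572 without the first and the second TG array. Serpind1, heparin cofactor II, had 1528, 2160.1 and 1429 in WT, 462 and 534 in KO, 147 and 133 in TG, and 122 and 139.7 in TR. It fell in all, and both KO arrays stayed above the TG and TR arrays, with -1.76 in KO, -3.59 in TG and -3.68 in TR (adjusted p among mutants = 0.00126). Fgf4, a growth factor gene, had 1191, 1629.8 and 1051 in WT, 629 and 502 in KO, 217 and 196 in TG, and 157 and 141 in TR, with the same order, -1.17 in KO, -2.62 in TG and -3.09 in TR (adjusted p = 0.00018). Slc22a2, an organic cation transporter, fell by 0.86 in KO and by at least 2.54 in TG and in TR, where all 4 arrays were at the floor (adjusted p = 6.11e-06). A2m, a protease inhibitor of the blood, followed it with -1.42 in KO, -2.40 in TG and -2.47 in TR (adjusted p = 0.000636). In these 4 genes KO was the least changed genotype.

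Some genes differed among the mutants without a call in the mean. Bhlhe40, a clock-linked repressor, had 574, 469 and 459 in WT, 197 and 155 in KO, 934 and 608 in TG, and 336 and 414 in TR. KO was lower and TG higher than WT, so that the mean was -0.44 ± 0.16 (adjusted p = 0.101). A dim probe set of Lpl, lipoprotein lipase, had -0.87 in KO, 0.71 in TG and -0.57 in TR, and Tap2, a peptide transporter, -0.65 in KO, 0.35 in TG and 0.12 in TR. The expressed sequence AI506816 had -2.17 in KO, 0.90 in TG and 0.19 in TR, and all 4 of these passed the test among mutants, with adjusted p from 2.62e-05 to 0.000145.

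A few cell cycle genes rose. Of 54 measured, 6 rose in the mean (1.91% of all genes did) and 1, Stmn1, fell, and 0 were called in every genotype. The median was 0.24, with 0.05 in KO, 0.10 in TG and 0.37 in TR. Mki67, the proliferation marker, had 75.3, 49.6 and 78.8 in WT, 427 and 317 in KO, 129 and 174 in TG, and 753 and 356 in TR. Every mutant array was above the WT arrays, and the rise was 2.15 ± 0.26 (adjusted p = 6.33e-05), but TG (1.12) was not called and the mutants differed (adjusted p = 0.0141). Aurkb, a mitotic kinase, rose by 1.48 ± 0.27 (adjusted p = 0.00217), with 2.50 in TR against 0.96 in KO. Kif23, a motor of cell division, rose by 1.03 ± 0.25 (adjusted p = 0.016). A second, dim probe set of Mki67 had 0.07 (adjusted p = 0.905).

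In the list of immature, non-myelinating and injured Schwann cells, 5 of 29 measured genes rose and 2 fell (1.91% and 6.1% of all genes), with Sox2 the 1 common member. The rises were 3 without the first or the third WT array. Tnc, a matrix protein of injured nerve, rose in the mean by 2.09 ± 0.43 (adjusted p = 0.00553), from 235, 267 and 56.1 in WT to 937 and 1386 in KO, 240.2 and 337 in TG, and 905 and 775 in TR. The first TG array lay within the WT range, and TG was not called. A second probe set of Tnc had 0.93 (adjusted p = 0.161). The adhesion gene Cdh2 changed by -1.56 ± 0.34 (adjusted p = 0.00922). The summed index of 7 markers of non-myelinating or immature Schwann cells was 2588 to 3203 in WT and 4769 to 6776 in the mutants, and Sox2 and Pou3f1 were the 2 of the 7 that rose. Both are among the common rises already named, and Ncam1, L1cam, Gfap, Gap43 and Jun were not called.

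Some genes of antigen presentation and the interferon response fell. Of 34 measured 11 fell and 0 rose in the mean, where 6.1% of all genes fell, with a median of -0.40, and Ifit3 was the 1 that fell in every genotype. Ifit3, an interferon-induced gene, had 380.2, 408 and 597 in WT, 153 and 54.1 in KO, 179 and 206 in TG, and 198 and 135 in TR and changed by -1.67 ± 0.23 (adjusted p = 0.000182). All mutants were below WT. H2-Ab1, a class II chain, changed in the mean by -1.50 ± 0.40 (adjusted p = 0.0271) and Psmb8, an immunoproteasome subunit, by -1.22 ± 0.26 (adjusted p = 0.00681). In single genotypes 14 of the 34 fell in KO, 2 in TG and 4 in TR. Of all 7703 genes, 928 fell in KO, 196 in TG and 248 in TR, so KO had more falls throughout. The count of 11 became 6 or 7 when any of the 3 WT arrays, the second KO or the second TG array was left out, and 0 in a fit of the P60 arrays alone.

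The other leukocyte lists held few calls, to be read against the 6.1% of all genes that fell and 1.91% that rose. Of 32 macrophage and complement genes 1 rose (Ctsc, 0.95) and 2 fell (Mrc1, -1.26, and Cyba, -0.69), of 38 chemokines and cytokines 3 rose and 1 fell, and of 18 genes of T and B lymphocytes 0 were called. The macrophage falls were 0 without the third WT or the second TG array and 6 without the first TG array. The summed index of 6 macrophage markers overlapped between the sides, 1938 to 2956 in WT and 1224 to 3218 in the mutants. Mast cell genes went both ways. Of 11 measured 4 fell and 1 rose, and Hdc, histidine decarboxylase, fell in every genotype, from 98.6, 109.7 and 105 to between 24.8 and 83.6. Its change was -0.78 ± 0.08 (adjusted p = 6.57e-06), with a P4 change of 0.0. Mutant arrays below the floor were set to the same value. The fall of Hdc is therefore understated, and its SE and p-value do not measure the full spread between pools. Mcpt4, a mast cell protease, was at the floor in all mutants. It exceeded the floor on only 3 of the 21 arrays, those of WT at P60, so the filter fixed its direction. Cpa3, carboxypeptidase A, fell by -1.32 ± 0.25 (adjusted p = 0.00301). Cma1, the brightest mast cell marker, overlapped, with 2009 to 3088 in WT and 2645 to 3023 in the mutants.

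Many muscle transcripts were higher in the WT samples. Of 35 measured genes of skeletal muscle 15 fell and 0 rose in the mean (6.1% of all genes fell), Pgam2 and Pygm fell in every genotype, and the median was -0.44. Ckm, muscle creatine kinase, had 1019.7, 2538 and 1972 in WT, 20.3 and 165 in KO, 565 and 184 in TG, and 196 and 6.03 in TR. Its change was -3.55 ± 0.69 (adjusted p = 0.0041), although a second probe set had 0.11 (adjusted p = 0.753). Tnni2 and Mylpf, parts of the fast-twitch contractile apparatus, changed by -3.03 ± 0.52 and -3.17 ± 0.74. The summed index of 10 muscle markers was 19030 to 32260 in WT, 2162 and 5799 in KO, 14370 and 6569 in TG, and 5938 and 2493 in TR, and 9 of the 10 markers were called lower. In bulk tissue, fewer cells of a type and less RNA per cell cannot be told apart. Of the common falls, Pygm, Pgam2, Ckmt2 and Adssl1 are muscle genes by background knowledge, the last 2 named after their values were seen. The part of muscle RNA in the other falls was not tested. Without the second or the third WT array 9 muscle genes fell.

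**Figure D4:**
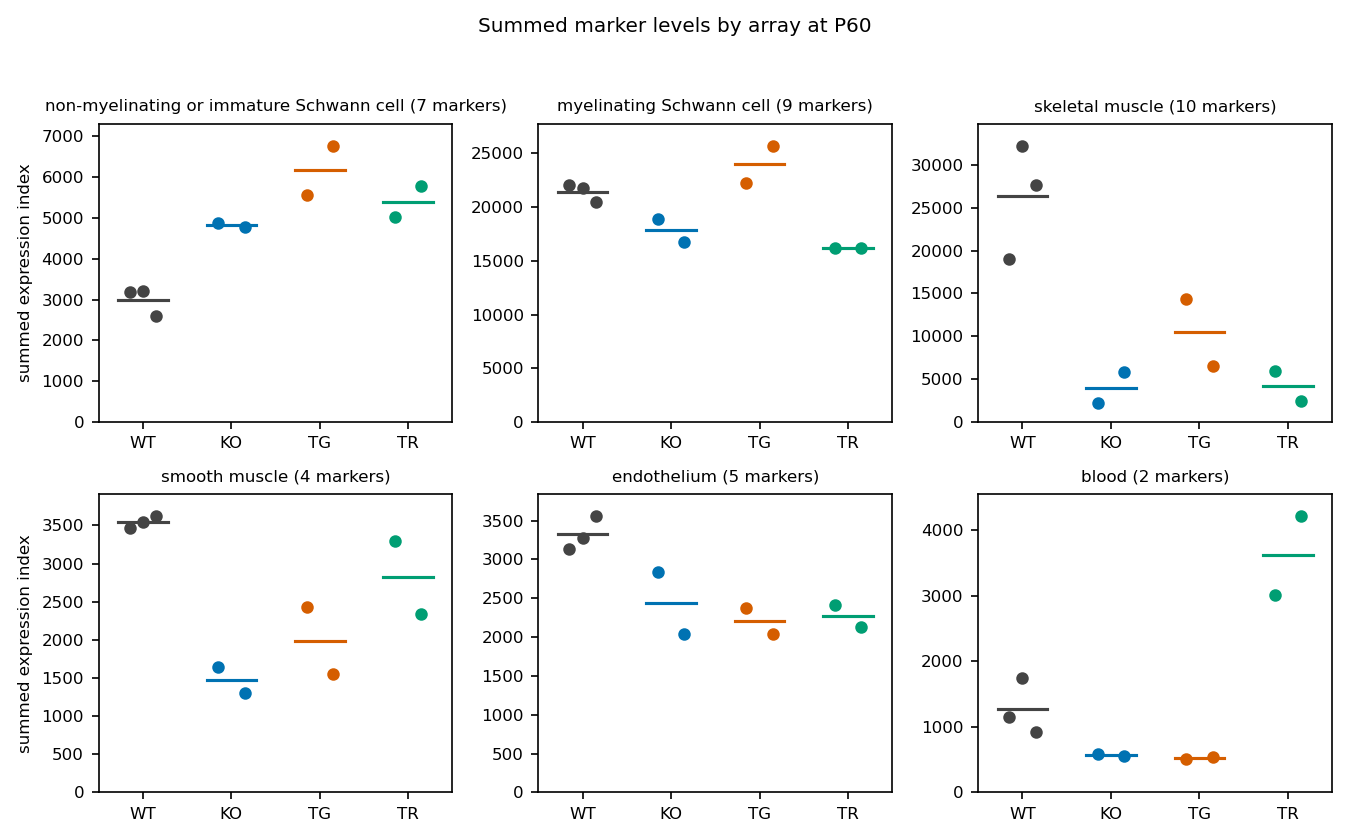
Summed expression index of marker genes on each of the 9 P60 arrays, with the number of markers measured in each title; points are arrays and bars are means. Skeletal muscle markers sum to 19030 or more in WT and to 14370 or less in the mutants, and blood markers are highest in TR. The sum for non-myelinating or immature Schwann cells is higher in the mutants, but only Sox2 and Pou3f1 of its 7 markers were called higher.

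Summed markers of smooth muscle and of endothelium were also lower on all 6 mutant arrays than on the WT arrays. The summed index of smooth muscle markers was 3466 to 3622 in WT and 1309 to 3297 in the mutants, with 1 of 4 markers, Tagln, called lower (-1.32 ± 0.22, adjusted p = 0.00125). For 5 endothelial markers the sum was 3129 to 3557 against 2038 to 2834, with 1, Kdr, called lower (-1.02 ± 0.21, adjusted p = 0.00629). Of the wider lists, 3 of 17 endothelial genes fell and 1 rose, 2 of 13 of smooth muscle and pericytes fell and 2 rose, 4 of 21 of fibroblasts and perineurium fell, and 3 of 19 of adipocytes fell, against 6.1% of all genes that fell and 1.91% that rose. In these lists 0 genes were called in every genotype, although a dimmer probe set of Tie1, an endothelial receptor, fell in each (mean -0.45, adjusted p = 0.00177) and its brighter one had -0.71 (adjusted p = 0.132). The 4 fibroblast calls became 0 without the first or the third WT, the second KO, TG or TR array, 1 without the second WT and 7 without the first TG array. Without the third WT array the endothelial falls were 1 and the adipocyte falls 0, and without the first KO or the first TR array 5 endothelial genes fell. The blood markers Hba-a1 and Alas2 summed to 928 to 1738 in WT, 511 to 588 in KO and TG, and 3014 and 4211 in TR, and of 17 erythroid genes 0 were called in the mean.

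Of 57 collagen and matrix genes 11 fell and 3 rose in the mean and 0 were common, where 6.1% of all genes fell, 1.91% rose, and 0.883% fell and 0.26% rose in every genotype. P4ha1, a collagen-modifying enzyme, changed by -1.94 ± 0.33 (adjusted p = 0.00133), Tnxb, tenascin X, by -1.57 ± 0.35 (adjusted p = 0.00886) and Lamb2, a laminin chain, by -1.42 ± 0.36 (adjusted p = 0.0206). The 3 mutants differed for 17 of the 57, against 721 of all 7703 genes. That count was not repeated for single lists without single arrays. In this list the median was -0.36 in KO, -0.26 in TG and 0.09 in TR. The count of 11 was 6 without the third WT array and 7 without the first WT, second KO, second TG or second TR array.

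Growth factor and ion channel genes held few common members. The shares over all genes, 6.1% lower and 1.91% higher in the mean, apply to these counts too. Of 45 growth factors and receptors 6 fell and 1 rose, and Fgf1 and Igf2 were common. The falls were 2 without the first WT array and 3 without the second WT, TG or TR array. Gdf5, a bone morphogenetic protein relative, changed in the mean by -1.57 ± 0.34 (adjusted p = 0.00843). Of 29 genes of channels, pumps and the node of Ranvier 2 rose and 2 fell. Kcna1, a potassium channel of the region beside the node, had 1825, 2088 and 2111 in WT, 4041 and 2291 in KO, 5055 and 5694 in TG, and 4341 and 2181 in TR and rose by 0.88 ± 0.21 (adjusted p = 0.0157). Ezr, a membrane-cytoskeleton linker of Schwann cell microvilli, rose by 1.19 ± 0.22 (adjusted p = 0.00256), while the pump regulator Fxyd1 changed by -1.39 ± 0.27 (adjusted p = 0.00374).

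The remaining lists showed scattered calls, to be read against the same 6.1% and 1.91%. Of 49 cytoskeleton and adhesion genes 8 fell and 2 rose, such as Tubb6, a tubulin (adjusted p = 0.00424), which fell, and Krt8, a keratin (0.86), which rose. The falls were 5 without the first WT, the third WT or the second TR array, and the rises 0 without any 1 of the 3 WT, the 2 TG or the first TR array. Of 17 neuron and axon genes 3 fell, such as Rtn1 (-1.65 ± 0.35, adjusted p = 0.00651), but 1 without any 1 WT, the second KO or the second TG array. Of 25 genes of endoplasmic reticulum stress 0 were called, with a median of 0.05, and of 39 cytosolic chaperone, proteasome and lysosome genes 1 fell, Cct5 (-0.67). In that list 17 genes differed among the mutants, against 721 of all 7703 genes, with a median of -0.32 in KO, 0.00 in TG and 0.20 in TR.

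The same contrast at P4 rests on 12 other arrays, although limma's estimate of the spread is shared. It called 62 probe sets (0.564%), 12 higher (0.109%) and 50 lower (0.455%), and 14 of the 113 common ones were among them with the same sign. The sign at P4 matched that at P60 for 77 of the 113, 23 of the 26 that rose and 54 of the 87 that fell. The change was smaller at P4 for all 113, but these were chosen for their change at P60, so that count is a description. Of the 87, 18 lay at the floor on all 12 P4 arrays and so had no measured change there. The median P4 change was 0.26 over the 26 and -0.10 over the 87. Over all 10994 probe sets, which do not vary independently, r between the mean changes at the 2 ages was 0.3.

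Most of the cholesterol genes that fell were already lower at P4. There 10 of the 18 fell and 0 rose, with a median of -0.92, against 34 of all 7703 genes. Idi1 changed by -1.38 ± 0.15 at P4 (adjusted p = 0.000184) and Hsd17b7 by -1.74 ± 0.30 (adjusted p = 0.01), where the change at P60 was -1.79. Elovl6 changed by -1.09 ± 0.14 (adjusted p = 0.00135). Of the 12 that fell at P60, 0 differed between the ages (adjusted p from 0.0552 up). With scan day as a fixed block the P4 contrast gave 4 calls, and 0 of the 62 were among them, so that none of these P4 falls was called in that fit.

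Most of the regulators were not called at P4. There Pou3f1 had 0.44 ± 0.31 (adjusted p = 0.919), Sox2 0.26 ± 0.20 (adjusted p = 0.934) and Sox4 0.32 ± 0.19 (adjusted p = 0.861), while Id2 rose by 0.64 ± 0.11 (adjusted p = 0.013). The test of the difference between the ages called 102 probe sets (0.928%), 27 higher (0.246%) and 75 lower (0.682%) at P60 than at P4, among them 60 of the 113. The P60 values that chose the 113 enter that test, so this count is a description. For Pou3f1 the difference was 3.53 ± 0.45 (adjusted p = 0.000399) and for Abca1 1.71 ± 0.31 (adjusted p = 0.0113).

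**Figure D5:**
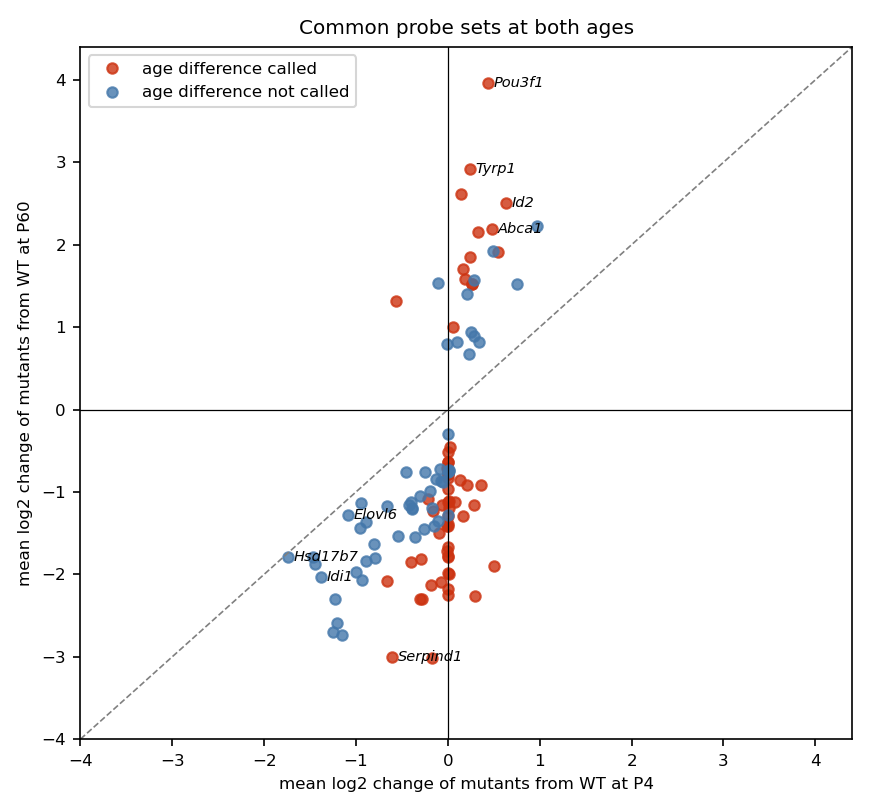
Mean log2 change of the mutants from WT at P4 (x axis) and at P60 (y axis) for the 113 common probe sets, which were chosen on the y axis values; red points passed the test of the difference between ages. Pou3f1, Tyrp1 and Id2 lie far above the dashed line of equal change, and Hsd17b7, Elovl6 and Idi1 nearer to it.

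With scan day as a random block (correlation 0.396) all 113 stayed called in the mean, 67 of them still met the rule for every genotype, and 70 probe sets met it in all.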

How the data were processed

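RNA from sciatic nerves, 4 to 7 mice to a pool, was hybridised to Affymetrix arrays. Per the labels' protocols, the authors made the deposited intensity values, model-based expression indices, with dChip after normalization between arrays. The index of the first P60 WT array rests on probe sensitivities taken from 18 arrays, and that of every other array on those from 27. The effect of this difference was not tested. Pools of 1 group were taken as replicates, and p-values measure the spread between pools. Arrays at the floor share 1 value, so p-values of probe sets with many such arrays rest on too small a spread. Here, values were floored at 54.7 and put on the log2 scale, and the 10994 of 12422 probe sets that exceeded it on 2 or more of the 21 arrays were fitted with limma 3.58.1 in R 4.3.3 (8 group means, trended variance, 13 residual degrees of freedom, Benjamini-Hochberg adjustment, threshold 0.05). Changes are ± SE. A gene with several probe sets is represented in lists by the one with the highest mean. The genes named are Pmp22, the 10 common rises and 10 common falls with the largest smallest change and no P60 array at the floor, up to 5 common ones with 1 side at the floor each way, up to 3 called members of each list, and the 4 leading probe sets of the test of ages, of the test among mutants within the common set, and of that test outside the mean calls. Other members of lists, and Csrp2, were named after their values were seen. The members, the 25 lists (648 of 832 genes measured) and the markers were chosen with earlier results of these data known. The scripts were tested on simulated data.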

Additional observations from a re-analysis of the deposited data

Results flagged for a closer look

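The mutant effect differed between the ages for 29 of the probe sets named above, by limma's test of P60 change minus P4 change. The difference was 3.53 for Pou3f1, 2.677 for Tyrp1, 1.869 for Id2, 1.831 and 1.536 for the 2 probe sets of Sox4, 1.768 for Mki67, 1.709 for Abca1, 1.611 for Phldb2, 1.37 and 0.9444 for those of Fos, and 1.26 for Sox2. On the lower side it was -2.558 for Cma2, -2.402 for Serpind1, -2.401 for Matn4, -2.022 for A2m, -2.018 for Fgf4, -1.982 for Slc22a2, -1.671 for Ifit3, -1.458 for Tagln, -1.425 for Fez1, -1.408 for Pygm, -1.381 for Igf2, -1.274 for Osbpl9, -1.218 for Tubb6, -0.8268 for Tspan8, -0.7884 for Rspo1, -0.7784 for Hdc, -0.7569 for Scg5 and -0.5135 for Mcpt4. Most were named for their change at P60, which enters this difference. For Slc22a2, Ifit3, Pygm, Tspan8, Rspo1, Hdc, Scg5 and Mcpt4 the P4 change was 0.0, so the difference only repeats the P60 change. No group held enough arrays for a test of single outlying arrays.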

How the results depend on the processing

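The number of arrays limits precision, and 2 arrays a genotype leave the common set most exposed. The 858 calls of the mean became 262 with only the P60 arrays, 103 with the mutants as 1 group on those arrays, and 235 for KO and TR with scan day fixed, an alternative chosen after seeing the data. Only 73 of those 235 were among the 858. Leaving out single arrays gave 463 to 1456. With TG and TR only, also added after seeing the data, there were 719. The 113 common probe sets became 29 with only the P60 arrays, 70 with scan day random, 584 when all 6 mutant arrays had to lie beyond the WT arrays in place of 3 calls, 72 with a change of at least 1 in every genotype, and 60 to 146 without single arrays. The 993 differences among mutants became 66 with only the P60 arrays, 221 with scan day random and 250 to 1753 without single arrays. The 62 calls at P4 became 18 with only the P4 arrays, 4 with scan day fixed and 26 to 99 without single arrays. The 102 age differences became 63 when probe sets had to pass the filter at both ages, 185 with scan day random and 55 to 392 without single arrays (392 without the first P60 KO, 154 without the first P60 TR and 55 without the third P4 WT array). The age test could not be fitted with scan day fixed. Samples of different groups share replicate numbers, but only some same-numbered samples deviated together. The r of deviations ran from -0.262 to 0.35 at P60, with 7 of 12 pairs above 0.1, among them those between mutants (0.176, 0.35 and 0.211). With 2 arrays in each mutant group, both same-numbered pairs of 2 mutants must give the same r. Each of these values therefore counts for 2 of the pairs. At P4 the r ran from -0.351 to 0.531, with 11 of 18 above 0.1. Since not every pair passed 0.1, the numbers were not taken to pair the samples. A fit with the replicate block gave 550 calls for the mean, 99 common, 1387 among mutants, 68 at P4 and 83 for age. The split of the mean calls turned from 228 higher and 630 lower to 186 higher and 49 lower for KO and TR with scan day fixed. Of the 88 named probe sets that were called, 47 passed under all of the 19 settings run for single probe sets, none changed sign in them, and 75 passed without the second P60 KO array. The fit of KO and TR with scan day fixed is not among the 19.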
